A study of Mus musculus with 28 samples.

Results

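The genes described are 30 that encode subunits of the Polycomb repressive complexes PRC1 and PRC2 in the mouse. They were taken by name from a list, matched by symbol to the RefSeq gene table of build GRCm38.p6, and all 30 were found among its 21887 protein-coding genes. For each gene, intervals of H3K27ac, histone H3 acetylated at lysine 27 and found at promoters and enhancers in use, were taken within 1 kb of either annotated gene end, anywhere in the gene, and in the 50 kb on either side of it. The genes fall into 5 classes: 6 PRC2 core genes, 5 PRC2 accessory genes, the RING pair of 2 genes, 9 canonical PRC1 genes and 8 variant PRC1 genes.

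The intervals came from cranial neural crest, the embryonic cell population that migrates into the head and builds much of the facial skeleton. Wild-type mouse embryos of age E10.5 gave 4 H3K27ac chromatin immunoprecipitation (ChIP-seq) libraries, 1 for each population (PA2, Md, Mx and FNP in the labels), and their reads were merged by the authors before intervals were called. The cells were sorted by fluorescence, and the labels name no sorting marker and no pooling of embryos. The series has 28 libraries in all, and the others, which include other genotypes, marks and inputs, were not analysed here. In the merged list of 125826 intervals, the crest and facial mesenchyme genes Twist1, Prrx2, Alx4 and Dlx5 had intervals at a gene end with top scores of 3067, 4697, 2683 and 1407, while the globin gene Hbb-bt and the epithelial cadherin gene Cdh1 had none there. These checked genes were chosen with results of the list known.

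Polycomb proteins keep developmental genes silent in cells where they are not needed. PRC2 methylates lysine 27 of histone H3, the same residue that carries the acetyl mark measured here, so the 2 marks exclude each other on a histone tail. PRC1 ubiquitinates histone H2A through a RING protein paired with a PCGF protein. Canonical PRC1 adds a CBX chromodomain protein that binds methylated H3K27 and a PHC protein that joins complexes together, whereas variant PRC1 contains RYBP or YAF2 in place of CBX. In cranial neural crest these complexes are known for keeping Hox genes silent outside their domains. The values below concern the acetylation of the complexes' own genes and not the genes they bind.

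The start-site table gives strands and start sites for 26 of the 30 genes, with 38 start sites in all. Cbx2, Pcgf1, Rybp and Yaf2 have no entry. RefSeq sequence of GRCm38.p6 is printed below for the 250 bases before 8 of these start sites, 5′ to 3′ on the gene's strand, with each CG dinucleotide in capitals. The Mtf2 first start had the highest score of any start of the 26 genes, and Phf19 the lowest among their best starts, followed by Cbx7. The other starts of Mtf2 and Phc2 are shown as examples of starts of a gene that differ in score, and Ezh2 is shown as the methyltransferase gene of the complex; these and Cbx7 were chosen after their values were seen.
Mtf2 start 1 (chr5:108065424-108065673, plus strand): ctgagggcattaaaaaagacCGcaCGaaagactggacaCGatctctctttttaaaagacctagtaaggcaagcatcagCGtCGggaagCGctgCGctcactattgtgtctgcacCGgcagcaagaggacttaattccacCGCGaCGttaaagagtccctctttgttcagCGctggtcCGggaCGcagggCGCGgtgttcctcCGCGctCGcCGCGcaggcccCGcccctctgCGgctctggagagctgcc
Mtf2 start 2 (chr5:108077915-108078164, plus strand): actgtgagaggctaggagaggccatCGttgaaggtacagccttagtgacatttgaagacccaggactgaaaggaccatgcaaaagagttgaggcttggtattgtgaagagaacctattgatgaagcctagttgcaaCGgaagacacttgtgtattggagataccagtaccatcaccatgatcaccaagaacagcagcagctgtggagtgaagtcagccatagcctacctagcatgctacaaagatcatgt
Phc2 start 1 (chr4:128654452-128654701, plus strand): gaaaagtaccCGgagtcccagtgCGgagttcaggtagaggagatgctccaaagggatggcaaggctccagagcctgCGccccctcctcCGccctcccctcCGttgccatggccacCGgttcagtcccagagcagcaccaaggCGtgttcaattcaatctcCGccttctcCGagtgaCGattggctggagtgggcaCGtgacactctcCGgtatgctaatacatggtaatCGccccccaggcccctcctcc
Phc2 start 2 (chr4:128688488-128688737, plus strand): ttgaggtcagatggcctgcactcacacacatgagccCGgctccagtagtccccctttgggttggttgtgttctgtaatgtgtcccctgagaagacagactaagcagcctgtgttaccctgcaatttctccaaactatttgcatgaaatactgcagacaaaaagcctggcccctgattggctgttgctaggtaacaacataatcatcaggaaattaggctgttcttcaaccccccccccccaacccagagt
Phc2 start 3 (chr4:128727321-128727570, plus strand): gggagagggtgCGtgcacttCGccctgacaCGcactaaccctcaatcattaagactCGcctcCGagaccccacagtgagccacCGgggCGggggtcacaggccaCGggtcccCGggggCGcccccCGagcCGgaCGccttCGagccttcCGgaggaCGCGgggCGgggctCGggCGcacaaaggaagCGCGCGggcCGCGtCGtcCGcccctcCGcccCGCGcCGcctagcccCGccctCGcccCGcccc
Phf19 start (chr2:34913977-34914226, minus strand): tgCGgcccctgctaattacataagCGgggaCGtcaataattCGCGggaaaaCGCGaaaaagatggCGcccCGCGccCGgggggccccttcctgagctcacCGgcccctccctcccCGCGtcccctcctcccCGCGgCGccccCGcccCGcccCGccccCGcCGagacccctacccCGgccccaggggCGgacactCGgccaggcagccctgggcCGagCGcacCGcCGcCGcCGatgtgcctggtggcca
Cbx7 start (chr15:79932647-79932896, minus strand): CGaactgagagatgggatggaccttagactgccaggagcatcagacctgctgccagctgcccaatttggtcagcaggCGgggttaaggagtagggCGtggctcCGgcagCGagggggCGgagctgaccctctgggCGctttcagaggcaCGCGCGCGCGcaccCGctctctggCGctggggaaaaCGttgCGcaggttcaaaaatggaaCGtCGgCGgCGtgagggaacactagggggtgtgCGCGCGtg
Ezh2 start (chr6:47595031-47595280, minus strand): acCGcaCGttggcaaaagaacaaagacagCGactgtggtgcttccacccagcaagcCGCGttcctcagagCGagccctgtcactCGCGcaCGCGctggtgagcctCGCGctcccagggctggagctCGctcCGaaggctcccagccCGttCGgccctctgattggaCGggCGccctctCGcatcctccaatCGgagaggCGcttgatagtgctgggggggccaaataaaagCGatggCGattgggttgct

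These stretches ranged widely in CG content. The first start of Mtf2 held 23 CG dinucleotides and its interval scored 12125, whereas the second start, 12.5 kb downstream, held 2 and had a top score of 70. At Phc2 starts 1, 2 and 3 held 13, 1 and 34, and their top scores were 1246, 270 and 8540. Between these genes the order of CG content was not the order of score: Phf19 held 31 and Cbx7 held 23, with top scores of 310 and 397, while Ezh2 also held 23 and scored 7390. Nor did every gene with several starts follow Mtf2 and Phc2 in full. Start 1 of Aebp2 held 1 and had a top score of 6260, in an interval that began 864 bp downstream of it. The same interval ended 124 bp upstream of Aebp2 start 2, which held 14. Start 3 of Aebp2 held 3 and had no interval within 1 kb. At Pcgf5 start 3 held 28 with 610 and start 1 held 23 with 771, while start 2 held 4 and had no interval. Marked starts of the 26 genes were grouped by score: 6 under 1000, 14 from 1000 to under 5000, and 16 of 5000 or over. Their median CG counts were 23, 18.5 and 22.5, which show no rise with score among marked starts, beside 9, 17 and 20 over all such starts. The 2 unmarked starts had a median of 3.5, beside 2 over all unmarked starts. The groups are small, and close starts of 1 gene with the same interval, as at Kdm2b and Bcor, each count. Over the 38 starts the median was 20.5 CG dinucleotides, beside 10 over all 21263 starts of the table, 16 over the starts with an interval within 1 kb and 2 over those without.

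Most of the 30 genes carried acetylation at a gene end. An interval lay within 1 kb of an end in 28 of them, against a background of 65.0% of all protein-coding genes, and the exceptions were the canonical PRC1 genes Pcgf2 and Cbx7. When only intervals lying across the gene-end base were counted, 14 of 30 were marked, against 32.6%. Pcgf2 and Cbx7 have their annotated start site well inside the outer gene end, and each had an interval at that start. Counted at start sites, 26 of 26 genes with an entry were marked, against 65.5% of 17492 genes. The list has no replicate, since it was called once on merged reads, so no value here has an error or a test, depth is unknown, and each is described beside the same quantity over all genes.

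The score of an interval is the authors' deposited value, which by the convention of the peak caller rises with −log10 of the interval's q-value and also with the number of merged reads. It was used only to describe and rank intervals within this list. The median of the top score was 4769.5 over the 28 marked genes and 2494 over all marked genes. Of the 28, 20 scored above that all-gene median, which 50.0% of marked genes exceed by construction, and 11 lay in the highest decile, which holds 10.0% of them. The width of the top-scored interval was above the all-gene median of 810 bp in 18 of 28, with a median of 939 bp, against the same 50.0%. The top interval also lay at an end of another protein-coding gene in 5 of 28, against 24.0%, and 4 of 28, Ezh1, Phf1, Cbx6 and Cbx8, had intervals at both ends, against 15.2%. Both shares are near the background.

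**Figure D1:**
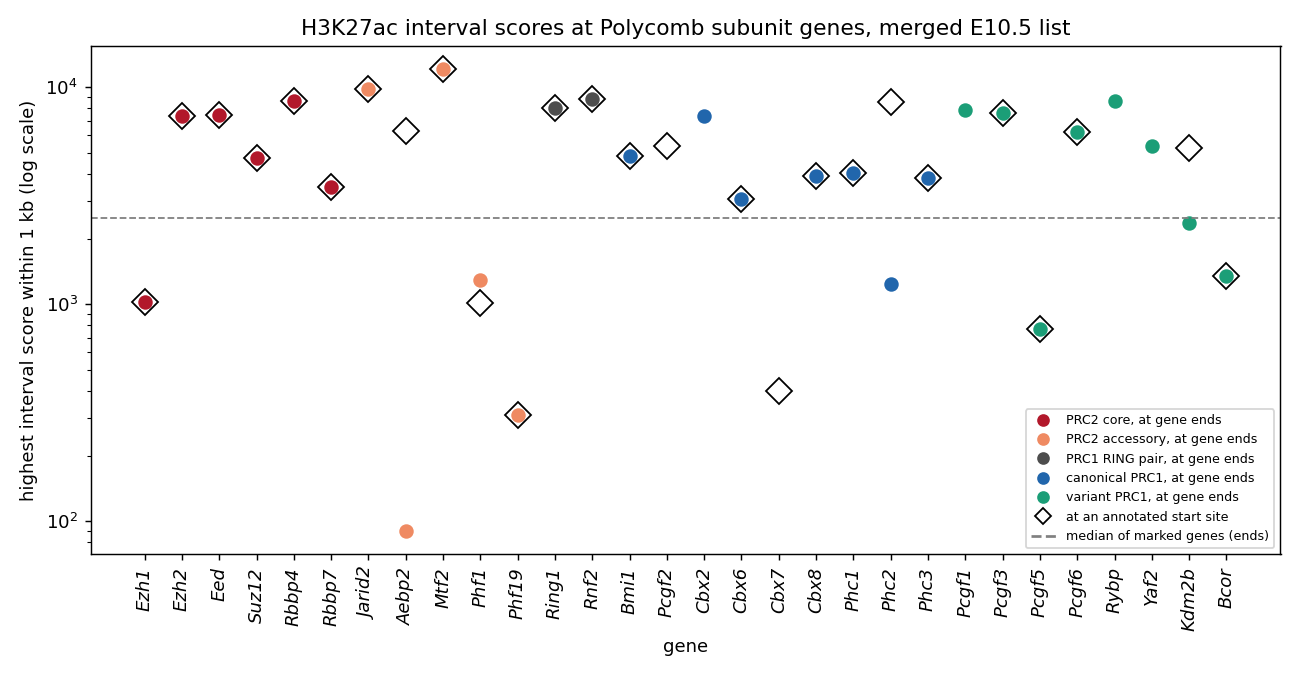
Highest H3K27ac interval score within 1 kb of a gene end (filled points, coloured by class) or of an annotated start site (open diamonds) for the 30 genes, on a log scale; the dashed line is the median of 2494 over all marked genes. Phc2 and Kdm2b have a diamond well above the point, from a start far inside the outer gene end. Pcgf2 and Cbx7 have a diamond and no point. The Aebp2 diamond is high because its interval lies 1073 bp from the outer end but 864 bp from the first start.

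The PRC2 core genes had a median top score of 6056 and a median width of 936 bp, and all 6 were marked. Ezh2, the main H3K27 methyltransferase of dividing embryonic cells, had a score of 7390 and a width of 1019 bp at chr6:47594014-47595032, with a second interval of score 4059 upstream of its start. Its paralogue Ezh1, the form more common in resting and differentiated cells, had a score of 1023 and a width of 638 bp at chr11:101225761-101226398. The intervals at the other end of Ezh1, with scores of 199 and 111, also lie at an end of Cntnap1. Ezh2 thus lay at the 90.3rd percentile of marked genes and Ezh1 at the 30.4th, the lowest of the core. Eed, which binds trimethylated H3K27 and stimulates the enzyme, had a score of 7475. Its interval at chr7:89979848-89981766 was 1919 bp wide, the widest top interval of the 28 genes, and reached from 790 bp upstream to 1128 bp downstream of the start without a break.

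The remaining core genes encode the scaffold and the histone-binding proteins. Suz12, the scaffold that holds the subunits together, had a score of 4722 and a width of 998 bp. Rbbp4, a histone-binding WD40 protein that other chromatin complexes also use, had a score of 8607 and a width of 874 bp. This interval also lies within 1 kb of an end of Zbtb8os, so it cannot be given to 1 of the 2 genes. Rbbp7, its paralogue on the X chromosome, had a score of 3487 and a width of 507 bp. Genes on the X chromosome as a whole were marked less: 46.5% of 966 had an interval at an end, with a median top score of 1369, against 66.7% and 2574 on the autosomes.

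The PRC2 accessory genes spread more than any other class, from a score of 90 to 12125. Mtf2, a Polycomb-like protein that brings PRC2 to unmethylated CpG-rich DNA, had the highest score of all 30 genes, 12125, in an interval of 878 bp at chr5:108065704-108066581, at the 99.0th percentile of marked genes. Jarid2, a DNA-binding partner that defines the other form of PRC2, followed with 9845 in an interval of 543 bp at chr13:44730752-44731294. Both intervals were high in score without being wide: Jarid2's was narrower than the all-gene median of 810 bp.

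The other accessory genes scored below the all-gene median at their ends. Phf1, a Polycomb-like relative of Mtf2, had 1012 at its start, in an interval that also lies at an end of Kifc5b. Its top interval, with a score of 1300 and a width of 773 bp, lay beyond the 3′ end and is shared with Cuta. Phf19, the remaining Polycomb-like gene, had 310 and 277 bp at chr2:34914161-34914437. The 3 Polycomb-like genes thus differed from each other at their starts, with 12125, 1012 and 310 for Mtf2, Phf1 and Phf19. The Phf1 value cannot be given to Phf1 alone, since Kifc5b shares the interval.

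Aebp2, the zinc finger partner found with Jarid2, had a score of only 90 and a width of 214 bp near its 3′ end. A strong interval of score 6260 and width 1259 bp lay inside the gene at chr6:140623527-140624785, 1073 bp from the outer end and so just outside the window. It began 864 bp downstream of the first annotated start and ended 124 bp upstream of the second. With start sites in place of gene ends, the median of the accessory class was 6260 in place of 1300, so the low class median rested on where the window was placed for Aebp2.

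Both genes of the RING pair, which encode the E3 ligases of all PRC1 forms, were among the highest. Rnf2 (also RING1B) had a score of 8807 and a width of 1027 bp at chr1:151499841-151500867. Ring1 had 8002 and 1072 bp at chr17:34024368-34025439. The Ring1 interval also lies at an end of H2-Ke6. With only 2 genes, their median of 8404.5 is no more than their midpoint, and both lay in the highest decile of marked genes.

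The canonical PRC1 genes had a median top score of 3889 and a median width of 915 bp over the 7 of 9 that were marked at an end. Bmi1, a PCGF protein that pairs with the RING ligases, had 4817 and 496 bp. Its interval also lies within 1 kb of an end of Commd3. Pcgf2, its close paralogue, had no interval at an end: the nearest began 1046 bp away and scored 693. Its annotated start lies 2.79 kb inside the outer end, and there an interval of score 5344 and width 1132 bp lay downstream and 1 of score 2445 and width 992 bp upstream. At start sites the paralogues Bmi1 and Pcgf2 therefore had 4817 and 5344.

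The CBX genes encode the chromodomain readers. Cbx2 had 7394 and 1278 bp at chr11:119023060-119024337, the highest of the 4, and was the only canonical gene in the highest decile at its ends. Cbx8, 5.03 kb from Cbx2 on chromosome 11, had 3889 and 396 bp. Cbx6 had 3053 and 1034 bp in an interval that also lies at an end of Npcd.

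Cbx7 differed from the other CBX genes. No interval lay within 1 kb of its ends, and the nearest began 2707 bp away. Its annotated start lies 38.5 kb inside the outer end, and the interval that covers it, chr15:79932285-79932694, scored 397 with a width of 410 bp. The highest intervals inside the gene, with scores of 1243 and 1236, lay on either side of this start and not at it.

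The PHC genes encode the polymerising subunits. Phc1 had 4021 and 926 bp, and Phc3 had 3798 and 915 bp, so both lay above the all-gene median. Phc2 had 1246 and 613 bp at its outer end. Start 3, 72.9 kb further in, was covered by an interval of score 8540 and width 1342 bp at chr4:128727020-128728361. Ranked by start sites, Phc2 is thus the highest of the 3 PHC genes, and ranked by gene ends the lowest.

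The variant PRC1 genes had a median top score of 5779, and all 8 were marked. The score median depended on the rule, and so did the genes counted. Where the interval covered the gene-end base, the variant median was 2358 over 5 genes, beside 4419 over 2 canonical PRC1 genes. With only the outermost start site it was 2358 over 5 genes, beside 3843.5 over 8 canonical genes. The order of these 2 classes turned under both, but the first rule left out Pcgf1, Pcgf3 and Pcgf6. The second left out Pcgf1, Rybp and Yaf2, which have no start entry. With all start sites the variant median was 5264 over 5 genes, beside 3955 over 8 canonical genes. At gene ends the top intervals of variant genes had the largest median width of the 5 classes, 1265 bp. By bases covered by all intervals there, the variant median of 1323 lay below 1767 for the PRC2 core and 1538 for canonical PRC1. Rybp and Yaf2 encode the paralogues that take the place of CBX. Rybp had 8668 and 952 bp at chr6:100286467-100287418, and Yaf2 had 5362 and 1626 bp at chr15:93336066-93337691. Pcgf1, which defines the variant complex that contains Kdm2b and Bcor, had 7845 and 1365 bp at chr6:83077676-83079040.

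The other variant PCGF genes were less alike. Pcgf3 had 7598 and 1281 bp, whereas its paralogue Pcgf5, which acts in a like complex, had 771 and 1249 bp. The 2 intervals were nearly equal in width and far apart in score. Pcgf6, the subunit of a complex with sequence-specific factors in germ line gene repression, had 6196 and 685 bp.

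Kdm2b and Bcor, partners of Pcgf1, scored below the all-gene median of 2494 at their outer ends, in intervals wider than the all-gene median of 810 bp. In score Kdm2b lay near that median, at the 48.3rd percentile of marked genes, and Bcor at the 35.0th. Kdm2b, whose CXXC domain binds unmethylated CpG, had 2358 and 1865 bp. Inner start sites 88.7 kb downstream had an interval of 560 bp and score 5264 upstream and an interval of score 3887 downstream. Kdm2b is known to make a shorter protein without its demethylase domain from an inner start. Bcor, a corepressor gene on the X chromosome, had 1355 and 1111 bp, close to the X median of 1369.

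**Figure D2:**
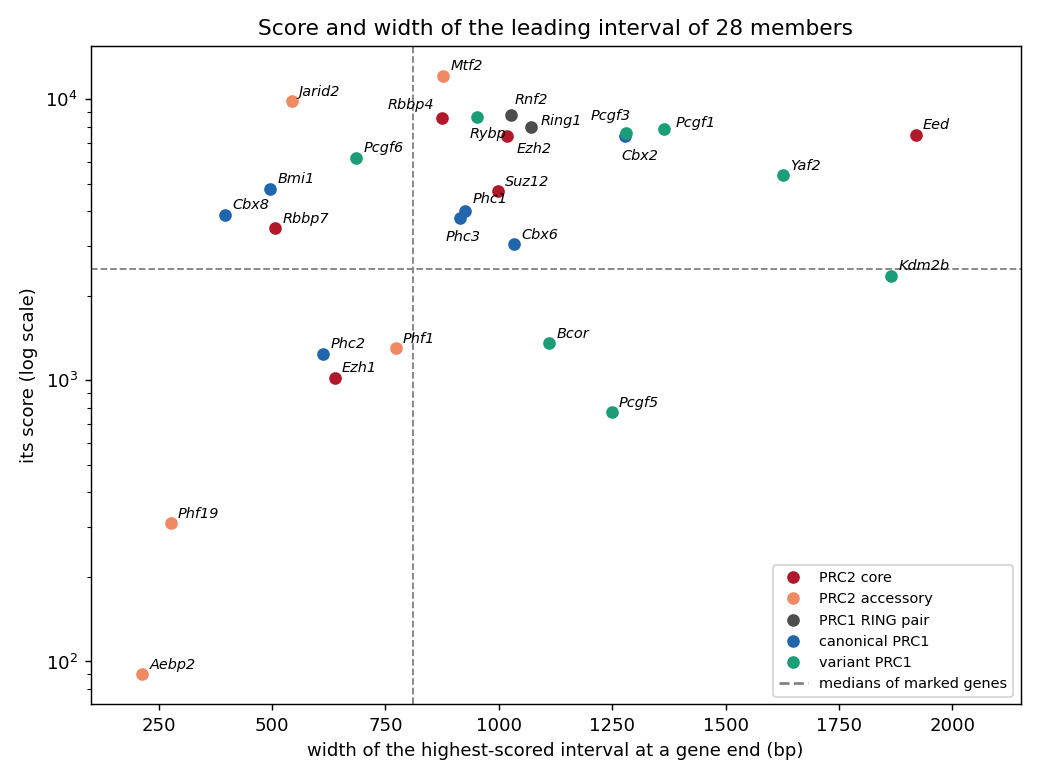
Score (log scale) against width in bp of the highest-scored interval at a gene end for the 28 marked genes, coloured by class, with dashed lines at the all-gene medians of 2494 and 810 bp. Mtf2 and Jarid2 stand at the top without great width, Eed and Kdm2b are the widest, and Phf19 and Aebp2 are low in both.

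At the start sites, the placement of intervals was near that of marked genes in general. The top interval covered the start in 14 of 26 genes, against 57.0% of 11458 marked genes, lay wholly downstream in 10, against 30.3%, and wholly upstream in 2, against 12.7%. Intervals lay on both sides of the start, or across it, in 23 of 26, against 83.9%. In a minority, 8 of 26, the start base fell in a gap between intervals, against 22.8%. These gaps had a median width of 237.5 bp, from 113 bp at Kdm2b to 347 bp at Cbx8, beside a median of 193 bp over all genes.

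Where separate intervals lay on both sides, the downstream interval was usually the stronger. This held in 8 of 9 genes, beside 68.3% of 2779 genes overall. At Mtf2 the downstream interval scored 12125 and the upstream 1944, and at Rnf2 they scored 8807 and 845. Pcgf2, Rbbp4, Rbbp7, Cbx6, Cbx8 and Bmi1 had the same order, and Kdm2b, at its inner start, was the exception.

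**Figure D3:**
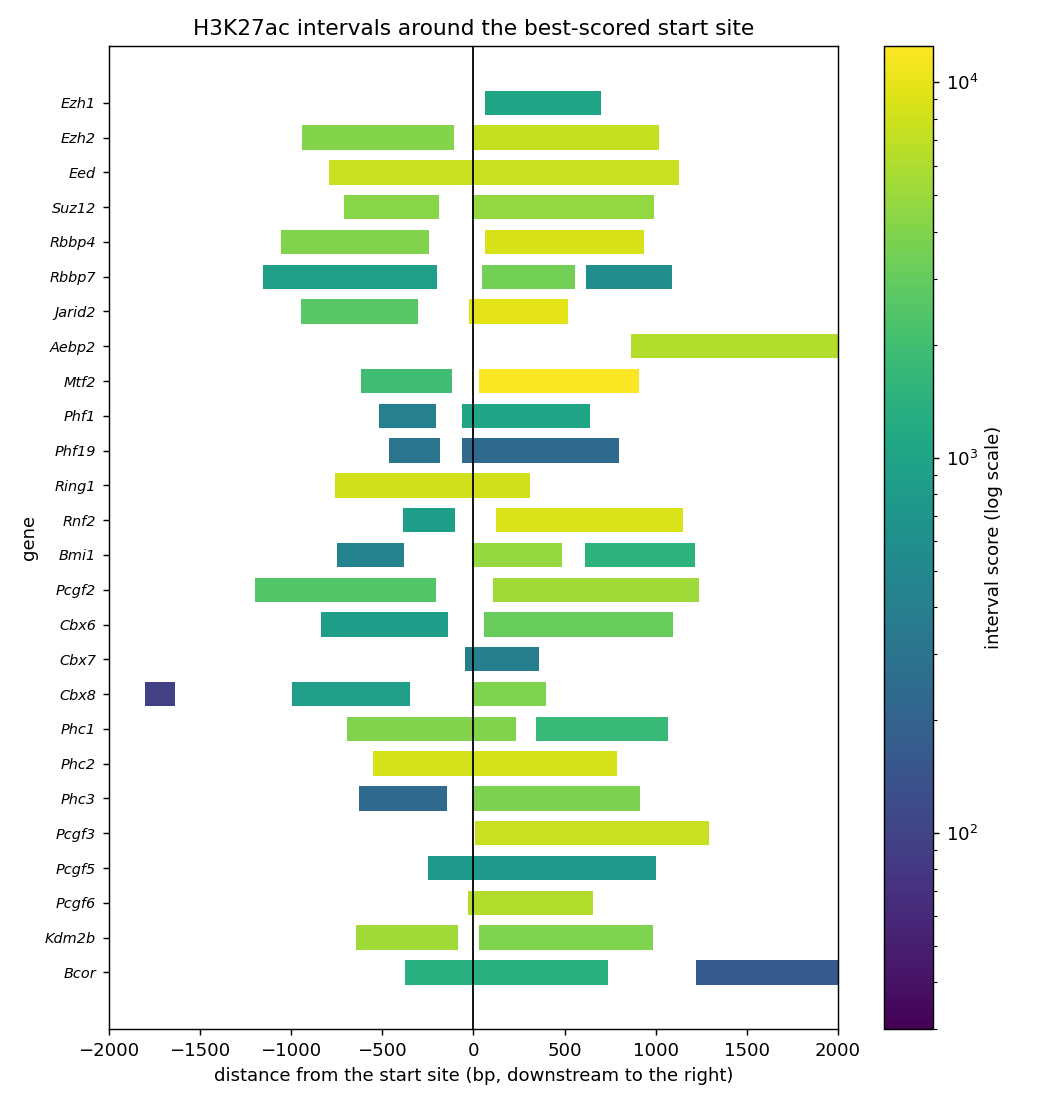
Intervals around the best-scored start site of 26 genes, with distance from the start in bp and downstream to the right; colour gives the score on a log scale. Gaps at the start are seen at Rbbp4, Rbbp7, Mtf2, Rnf2, Pcgf2, Cbx6, Cbx8 and Kdm2b, while Eed, Ring1 and Phc2 have an unbroken interval across it.

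The 250 bases before the starts were searched on both strands for short motifs, and a match describes letters, not binding. The GC box (GGGCGG) was found at 26 of 38 starts, 68.4%, beside 42.6% of all starts and 59.2% of starts with an interval. CCAAT was found at 14, 36.8%, beside 35.4% and 35.1%. An ETS motif (CCGGAAGT) and E2F motifs (TTTCGCGC or TTTGGCGC) were found at none, beside 5.56% and 1.22% of starts with an interval. NRF1 (GCATGCGC) was found at 1, beside 4.19% of those starts, and YY1 (AAGATGGCG) at 1, Phf19, beside 1.03%. TATAAA was found at 1, the second start of Jarid2, beside 11.6% of all starts and 5.998% of starts with an interval.

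An E-box (CACGTG) stood before 7 starts, 18.4%, beside 6.63% of all starts, 8.37% of starts with an interval and 10.6% of starts with at least 20 CG dinucleotides. Counted by gene, 6 of the 8 canonical PRC1 genes with a start entry held it, and Rbbp4 of the PRC2 core, while none of the accessory, RING pair or variant genes did. Over all 17492 genes with an entry 7.61% held it at any start, and 9.79% of the 11458 genes with an interval at a start did. The windows of 30 bases around each are shown because they share the motif, which is in capitals; they were noticed after the search.
Rbbp4 (chr4:129335577-129335606, minus strand): tagggtgtatgtCACGTGatctgcacgggc
Bmi1 (chr2:18676791-18676820, plus strand): gaatgaggggagCACGTGacccggcggggg
Pcgf2 (chr11:97699768-97699797, minus strand): aaggaatgaggtCACGTGggtgagtagtgg
Cbx6 (chr15:79834342-79834371, minus strand): ggcccggagcatCACGTGacggcccgcagc
Cbx8 (chr11:119040994-119041023, minus strand): cgtcgttagcaaCACGTGgggcgggaggaa
Phc2 start 1 (chr4:128654633-128654662, plus strand): ggctggagtgggCACGTGacactctccggt
Phc3 (chr3:30969480-30969509, minus strand): agtcgctggcctCACGTGacctctgcgccc
The motif began 26 bases before the start at Cbx6, 57 at Phc2, 82 at Phc3, 98 at Cbx8, 137 at Pcgf2, 215 at Bmi1 and 224 at Rbbp4. Scores at these starts ran from 1246 at Phc2 to 8607 at Rbbp4, so the genes share the letters but not a level. Cbx7 and Phc1 were the canonical genes without it.

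All 30 genes held an interval in the gene, against 73.1% of all protein-coding genes. In 16 of 30 an interval lay wholly inside the gene and away from its ends, against 41.2%. Longer genes hold more intervals, so counts were set beside genes of like length. The 4 genes between 100 and 200 kb long, Jarid2, Pcgf5, Kdm2b and Bcor, had 21, 3, 14 and 25 intervals. Their median of 17.5 stands beside 9 over the 1439 genes of this length. The 7 genes of 50 to 100 kb had a median of 4, the same as all genes of that length. The 13 genes of 10 to 50 kb had a median of 2 beside 1, and the 6 under 10 kb a median of 1 beside 0.

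Intervals inside the gene and away from its ends were of different kinds. Bcor had 24, of which 20 scored at least 100, and the highest scored 1189. They formed 2 runs, 13 intervals between 1.22 and 37.4 kb downstream of the first start and 11 between 68.2 and 97.5 kb. Jarid2 had 20, of which 9 scored at least 100, and none reached 1000: the highest, 932, lay in a run of 8 intervals between 109 and 144 kb downstream of the start. The inside intervals had a median score of 97 at Jarid2, whose start scored 9845, and of 259 at Bcor, whose start scored 1355.

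Phc2 and Kdm2b had their strongest inside intervals at inner starts. Phc2 had 14, of which 12 scored at least 100, with a median of 369 and the highest, 8540, at start 3. Kdm2b had 13, of which 7 scored at least 100, with a median of 115. Cbx7 had 6, all of which scored at least 100, with a median of 365. By contrast Pcgf5, at 113 kb of like length to Kdm2b, had 2, of which the higher, 610, covered its innermost start. Ezh2 had 1 inside interval, with a score of 70, in 65.0 kb of gene.

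**Figure D4:**
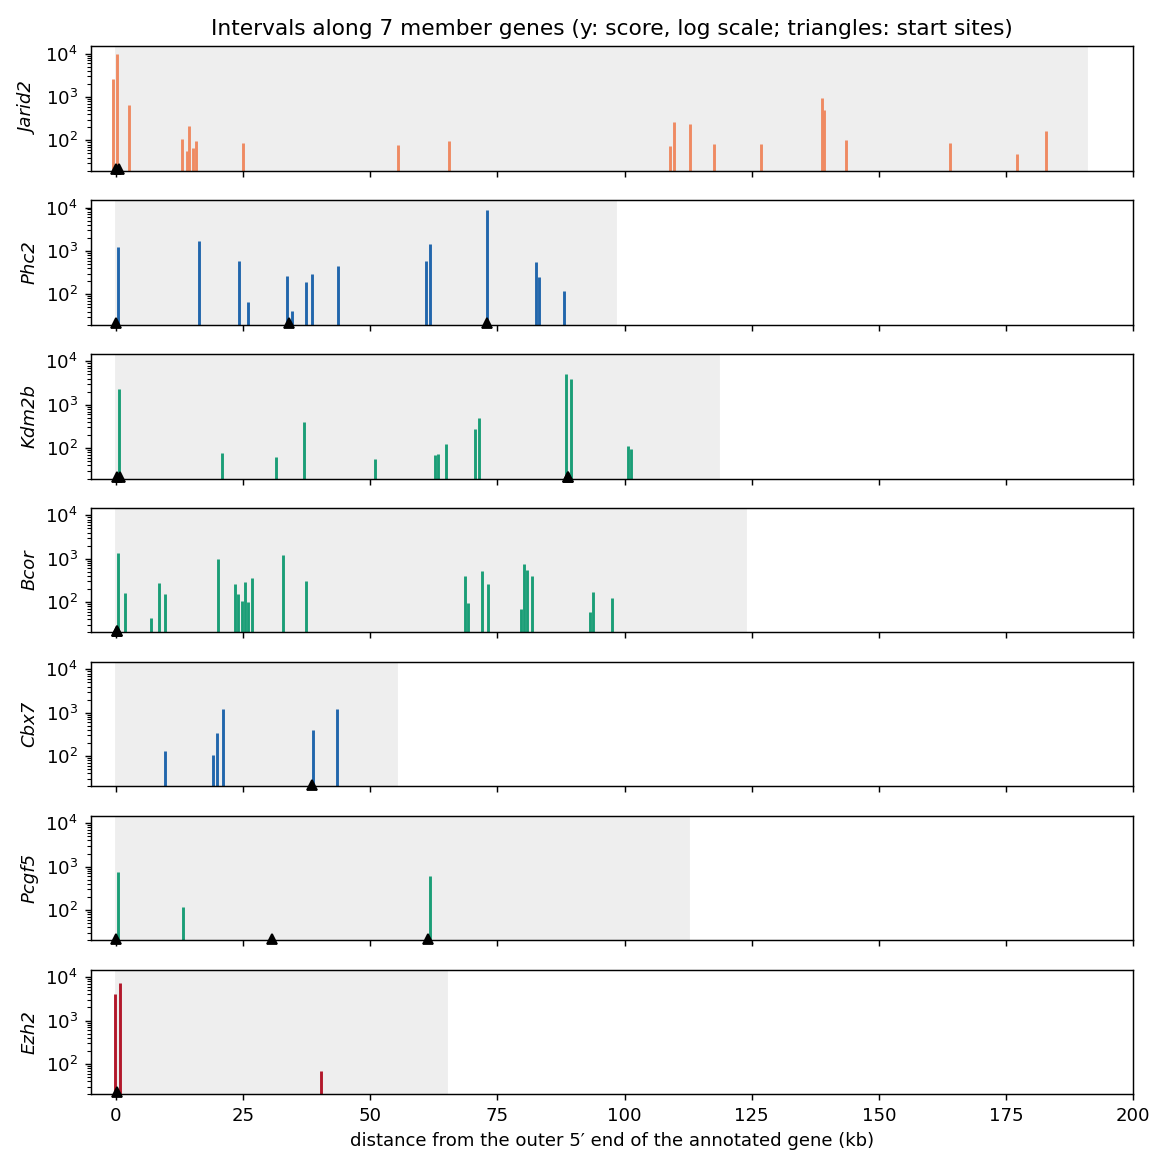
Intervals along 7 of the genes, with distance from the outer 5′ end of the annotated gene in kb, bar height as score on a log scale, grey shading for the gene and triangles for start sites. Bcor shows 2 runs of moderate intervals, Phc2 and Kdm2b have their highest bars at an inner start, and Pcgf5 and Ezh2 are nearly empty.

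In the 50 kb on either side of the genes, 29 of 30 had at least 1 interval, against 85.2% of all genes, with a median of 8.5 intervals beside 6. Many of these lie at ends of neighbouring genes, and without those at any protein-coding gene end the median was 5 beside 3. Ezh1 had 21, of which 13 lay at gene ends, among 7 other coding genes. Pcgf1, among 13 other coding genes, had 16, of which 11 lay at gene ends. Pcgf5 had 0, Ezh2 had 2 and Pcgf3 had 3. Ezh2 and Pcgf3 thus had strong starts in flanks with few intervals.

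The flanks of Cbx2 and Cbx8 held the most intervals away from gene ends. Cbx8 had 22 flanking intervals and Cbx2 had 18, of which 16 and 14 lay at no protein-coding gene end, and 14 flanking intervals were counted for both because the genes are neighbours. The strongest of those away from gene ends, chr11:119056410-119057229, scored 3687 and lay 25.1 kb from Cbx2 and 15.5 kb from Cbx8. Rybp had 13 flanking intervals with no other coding gene within 50 kb, of which 12 lay at no gene end, yet the highest of the 12 scored 412. Bcor had 7, also with no coding neighbour, and the highest, chrX:12007295-12007733, scored 1794, above the 1355 at its own start. Cbx6 and Cbx7, 81.5 kb apart on chromosome 15, both have in their flanks the interval chr15:79883491-79883901 with a score of 2257, which lies at no protein-coding gene end.

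**Figure D5:**
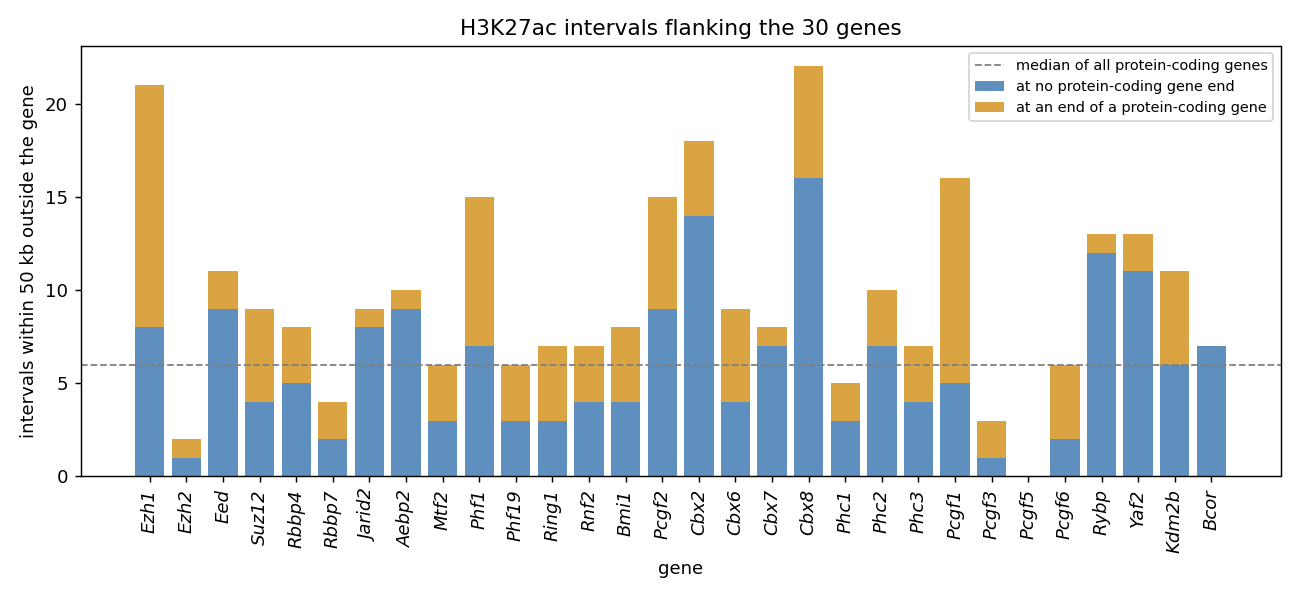
Number of intervals within 50 kb outside each of the 30 genes, divided into those at an end of a protein-coding gene and those at none; the dashed line is the median of 6 over all protein-coding genes. Cbx8, Ezh1 and Cbx2 are highest and Pcgf5 has 0.

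Other genes around the Polycomb system were taken from 5 further lists, and all 70 matched. Of 21 further PRC1 partners, 18 were marked at an end, against the same background of 65.0%, with a median top score of 3583.5. The highest were Csnk2a1, a casein kinase 2 subunit, with 11417 and Skp1 with 9751, and Usp7, Sfmbt2 and L3mbtl1 had none. All 11 genes of the deubiquitinase complex PR-DUB, which removes ubiquitin from H2A, were marked, with a median of 4061. The scaffold gene Asxl1 had 9306 and the enzyme gene Bap1 had 7172. Of 4 further PRC2 partners, 3 were marked, with a median of 6985. Lcor had 8005 and Lcorl 6985, while Scml2 had none.

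Trithorax proteins and H3K27 demethylases act against Polycomb, and a further list holds chromatin remodelling, cohesin and other chromatin genes. Of 16 Trithorax methyltransferase and H3K27 demethylase genes, 13 were marked, against the same 65.0%, with a median of 3920. Setd1a, an H3K4 methyltransferase, had 11871 and Ncoa6, a subunit of related complexes, had 11139, while Ash2l, Dpy30 and Kdm6b had none at an end. Of 18 chromatin remodelling and cohesin genes, 16 were marked, also against 65.0%, with a median of 7288. Srcap, a remodeller, had 13519 and Ep300, an H3K27 acetyltransferase, had 10405, while Nipbl and Rad21 had none at an end. The median of the 28 Polycomb genes, 4769.5, lay between those of these 2 lists, and no difference between lists was tested.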

How the data were processed

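H3K27ac ChIP-seq of 4 wild-type libraries was analysed as 1 list. Per the text deposited with the list, the authors merged the reads and called intervals with MACS2 2.1.3.3 (no model, shift 0, extension size 141 bp, duplicates kept, q-value limit 0.001), and no control is named. Bowtie 1.1.1 and bcl2fastq 2.17 come from the submitters' processing notes, as does the build, GRCm38. The only value per interval is the deposited score, on a scale that depends on depth, which is unknown. Without replicates or values per population there is no test, SD or interval.

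Intervals were assigned to genes by an overlap of at least 1 bp with Python 3.11.15, numpy 2.4.6 and pandas 2.3.3, and plotted with matplotlib 3.10.9. An interval near several genes was counted for each. The top interval of a gene is the highest-scored within 1 kb of either end. The assignment was tested on simulated data, and 200 of 200 planted intervals were recovered. Every member is named; of the further lists, the 2 highest genes and up to 4 without an interval are named, and neighbours where they share an interval. Members and lists were chosen with earlier results of these data known. Alternatives varied the window, overlap, start sites, score and flank.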

Additional observations from a re-analysis of the deposited data

How the results depend on the processing

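Of 112 values recomputed under alternatives, 97 stayed within 1.5 times the value reported and 15 did not; 1.5 times was the limit used because medians from 1 list have no replicate error. None of the 51 recomputed widths moved beyond it. Some of the values could not move, so these counts do not measure stability. A minimum score leaves any top score above it unchanged. Counting unmarked genes as 0 changes nothing in a class whose genes were all marked. Leaving out shared top intervals changes nothing for variant PRC1, which had none. Members marked at an end fell to 14 where covering the gene-end base itself was required (background 32.6%). The variant PRC1 median score was 2358 with that rule, over 5 genes, beside 4419 over 2 canonical PRC1 genes. It was 2358 over 5 genes with only the outermost start site, an alternative added after seeing the data, beside 3843.5 over 8 canonical genes. Each rule left out some variant genes, so these orders do not cover the whole class. The PRC2 accessory median score was 6260 with a window of 2.5 kb, with start sites or with only the outermost start site, 5572.5 with scores of at least 100 or the higher-scored 50% of intervals, and 5077.5 without shared intervals. The first 3 of these settings take in Aebp2's interval just outside the window, the next 2 leave Aebp2 out because its end interval scores 90, and the last leaves out Phf1. Members with an interval wholly inside the gene and not at an end numbered 16 (background 41.2%). The median number of flanking intervals was 4 within 25 kb and 16 within 100 kb (3 and 12 over all genes), and 5 without intervals at other gene ends, with scores of at least 100 or with the higher-scored 50% (3, 4 and 3 over all genes). No paired analysis was possible because the result comes from no test and the list merges its libraries. For the same reason no library could be left out, and differences between populations could not be seen.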

Other observations

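Outer gene ends missed strong acetylation at other chromatin genes as well as at Pcgf2 and Aebp2. Of the genes in the further lists without an interval at an end, the cohesin gene Rad21 held an interval of score 12241 inside the gene, the H3K4 methyltransferase subunit gene Ash2l 9594, the deubiquitinase gene Usp7 8304, the cohesin loader gene Nipbl 4690, Dpy30 4527 and the H3K27 demethylase gene Kdm6b 3376. Scml2 held 1636, Sfmbt2 637 and L3mbtl1 180. The Rad21 interval also lies within 1 kb of an end of the protein-coding gene Gm52217, so it cannot be given to Rad21 alone. Over all protein-coding genes, 7652 had no interval at an end. Of these, 673 held an interval of score 1000 or more inside the gene and 208 one of 5000 or more, and 685 of the 6140 with a start-site entry had an interval within 1 kb of an annotated start.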
